A study of Mus musculus with 10 samples.

Results

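The classical pathway of MHC class I antigen presentation was followed through 10 genes in mouse intestinal epithelial cells (IECs). They were the class I heavy chains H2-K1 and H2-D1, their light chain B2m, the transport and loading genes Tap1, Tap2 and Tapbp, the transactivator Nlrc5, and the immunoproteasome subunits Psmb8, Psmb9 and Psmb10. The genes were taken by name from a table of 55487 genes, in which each of the 10 names stood on 1 row. RNA was sequenced from colonic IECs of untreated C57BL/6J mice, with 5 libraries from wild type (WT) mice and 5 from homozygous RhoB knockout (RhoB-/-) mice. The knockout was carried by the whole animal, so cells other than IECs lacked the gene too. The methods describe RhoB-/- mice made at a model organism centre and WT males that were purchased. For chronic colitis the study compared heterozygous mice with WT littermates. Which WT mice were sequenced was not stated, so that genotype and origin of the animals cannot be told apart. Neither the sex of the RhoB-/- mice nor the ages of the sequenced mice were stated for these libraries, and the study's ages held unless stated otherwise. Levels are given in TPM, a share of the library's transcripts that is corrected for gene length, so that different genes can be set side by side. The listed values summed to between 971419 and 993229 TPM per library, so the total was only nearly fixed. The labels number the replicates without naming the animals, and the p-values below measure the spread between these libraries.

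Class I molecules are carried by nearly all nucleated cells and show short peptides from the cell's own proteins to CD8+ T cells. The peptides are cut by the proteasome, whose catalytic subunits can be exchanged for the inducible subunits of the immunoproteasome, and are pumped into the endoplasmic reticulum by the Tap1-Tap2 transporter. There tapasin, the product of Tapbp, holds the empty heavy chain and its light chain beside the transporter until a peptide is bound. NLRC5 is the transactivator of the heavy chain genes and of B2m, Tap1 and Psmb9, acting with RFX, CREB/ATF and NF-Y proteins on a promoter module of closely spaced boxes, and interferons are the best known inducers of the whole set. In the gut, IECs express class I constitutively and raise it further under interferon.

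The promoters of both heavy chains and of the light chain are shown because they hold the same spaced pair of boxes. Each sequence is the 250 bases before a RefSeq start of the gene on GRCm38.p6, written 5′ to 3′ on the strand of the gene. H2-K1 had 2 such starts, of which 1 is used. For H2-K1 (chr17:34000348-34000597, minus strand), H2-D1 (chr17:35262844-35263093, plus strand) and B2m (chr2:122147437-122147686, plus strand), capitals mark the pair TGACG and ATTGG, an IRF core AANNGAAA and a kB box GGGNNTTNCC, on either strand. For Tap1 (chr17:34187306-34187555, plus strand), which holds the same 2 boxes without that spacing, capitals mark TGACG and ATTGG alone.
H2-K1: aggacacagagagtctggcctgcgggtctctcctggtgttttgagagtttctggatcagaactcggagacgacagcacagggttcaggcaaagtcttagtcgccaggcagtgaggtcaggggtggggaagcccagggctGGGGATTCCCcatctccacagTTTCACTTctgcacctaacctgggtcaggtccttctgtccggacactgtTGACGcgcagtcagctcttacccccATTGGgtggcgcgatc
H2-D1: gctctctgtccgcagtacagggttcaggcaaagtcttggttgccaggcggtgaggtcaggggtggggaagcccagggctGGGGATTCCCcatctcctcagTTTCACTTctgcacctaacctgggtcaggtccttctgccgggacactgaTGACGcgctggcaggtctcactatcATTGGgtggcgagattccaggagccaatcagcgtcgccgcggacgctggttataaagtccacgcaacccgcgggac
B2m: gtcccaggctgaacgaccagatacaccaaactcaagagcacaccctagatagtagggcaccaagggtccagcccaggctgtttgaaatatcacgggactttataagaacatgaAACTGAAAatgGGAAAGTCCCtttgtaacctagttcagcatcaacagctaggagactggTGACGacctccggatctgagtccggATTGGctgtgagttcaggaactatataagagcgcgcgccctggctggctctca
Tap1: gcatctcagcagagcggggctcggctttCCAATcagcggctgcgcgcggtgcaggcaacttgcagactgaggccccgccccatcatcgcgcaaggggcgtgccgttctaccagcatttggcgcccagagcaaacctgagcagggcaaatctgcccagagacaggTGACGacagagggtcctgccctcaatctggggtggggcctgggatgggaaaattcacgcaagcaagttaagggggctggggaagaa
The letters TGACG belong to the CREB/ATF box of the module and ATTGG, or CCAAT on the other strand, to its NF-Y box. In H2-K1, H2-D1 and B2m the boxes were 20 bases apart. That spacing was chosen after the sequences of these genes were seen, so that its presence in them is a description. Counted from the RefSeq start of each printed sequence, the pair began at -41 in H2-K1, at -101 in H2-D1 and at -78 in B2m. From the other RefSeq start of H2-K1 it began at -55.

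Among 32851 RefSeq windows that ran from 250 bases before to 50 bases after a start, 31 held the spaced pair, or 0.0944%. TGACG alone was in 20.8% of them, ATTGG in 37.4%, the IRF core in 23.9%, the kB box in 4.79% and the GAS element TTCNNNGAA in 8.3%, all read on both strands. Of the 10 presentation genes 8 had a window, and Tap2 and Nlrc5 had none. TGACG was in 5 of the 8 windows, ATTGG in 6, the IRF core in 3, the kB box in 3 and the GAS element in 1, that of Psmb8. Counted from the starts of the printed sequences, the IRF core began at -90, -150 and -137 in H2-K1, H2-D1 and B2m. The kB box began at -111, -171 and -126. In B2m the IRF core stood upstream of the kB box, and in both heavy chains the order was the other way round. The aligned promoters of H2-K1 and H2-D1 were 89.5% identical over 239 bases, against 62.9% for H2-K1 and B2m and 61.8% for H2-D1 and B2m. The 31 windows belonged to 27 genes, of which 19 were tested for expression, and a gene was called where it changed more than 1.5-fold at a limma adjusted p under 0.05. Of the 19 genes, 3 were called higher in RhoB-/- IECs, H2-K1, H2-D1 and B2m, the genes from which the spacing was taken. None of the others was called higher, and 1 was called lower, Nrarp (log2 fold change -0.71, limma adjusted p = 0.0262). Over all 12870 genes tested, 5.58% were called higher and 7.13% lower. The share of 3 in 19 was set by the choice of spacing and is no test. The class I paralog H2-M3 also held the pair and did not pass the test, with a log2 fold change of 0.07.

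Tap1 and Psmb9 are read away from a shared stretch of DNA. Their annotated RefSeq starts were 226 bases apart on opposite strands, and 275 of the 300 bases of their windows were the same bases. In that stretch TGACG lay at -86 and the CCAAT box at -222 from the Tap1 start, and at -144 and -8 from the Psmb9 start. Their GENCODE gene bodies overlap by 212 bases on opposite strands, and whether the counting used the strand was not given in the sources used here. The 4 genes Psmb9, Tap1, Psmb8 and Tap2 follow each other within 34335 bases of the MHC on chromosome 17, and 7 of the 10 genes are on that chromosome.

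Rhob itself was read first, as a check of the labels. The WT libraries had 171, 303, 365, 333 and 389 TPM in replicates 1 to 5, and the RhoB-/- libraries 0.09, 0.10, 0.35, 0.57 and 110.87 TPM. All RhoB-/- libraries were below all WT libraries (log2 fold change -6.61, SE 1.08, limma adjusted p = 0.00172), but the library labelled RhoB-/- replicate 5 kept Rhob transcript at a level far above the other 4. Results are therefore also given without it. Mitochondrial transcripts took 17.5 to 26.5% of TPM in WT and 10.3 to 22.4% in RhoB-/- libraries, and 20261 to 21344 genes were above 0. TPM values keep no sequencing depth, so the counting error behind a value is unknown.

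All 10 presentation genes rose in RhoB-/- IECs, and for each of them the lowest RhoB-/- library was above the highest WT library. The log2 fold changes on log2(TPM + 1), as RhoB-/- over WT, ran from 0.89 for Psmb10 to 3.10 for Nlrc5 with a median of 1.62, and the limma adjusted p-values from 1.69e-06 to 0.00657. The test was run over the 12870 genes with a mean of at least 1 TPM. Over those genes 5.58% were called higher (718), 7.13% lower (918), and 5.97% had every RhoB-/- library above every WT library. Their median log2 fold change was -0.13, and after median centring, which moved it to -0.01, the calls were 950 higher and 539 lower while the 10 genes ran from 1.01 to 3.21. Without the library labelled RhoB-/- replicate 5 all 10 remained called, between 0.88 and 3.06. Leukocyte markers, which were at low levels in these libraries, moved the same way: the sum over 19 of them was 26.8 to 43.2 TPM in WT libraries against 80.3 to 142 TPM in those of RhoB-/-, and their part in the rise was not tested. In bulk RNA of this kind, more cells of a type and more RNA per cell cannot be told apart. The 10 genes together took 0.147 to 0.223% of TPM in WT and 0.486 to 0.737% in RhoB-/- libraries.

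**Figure D1:**
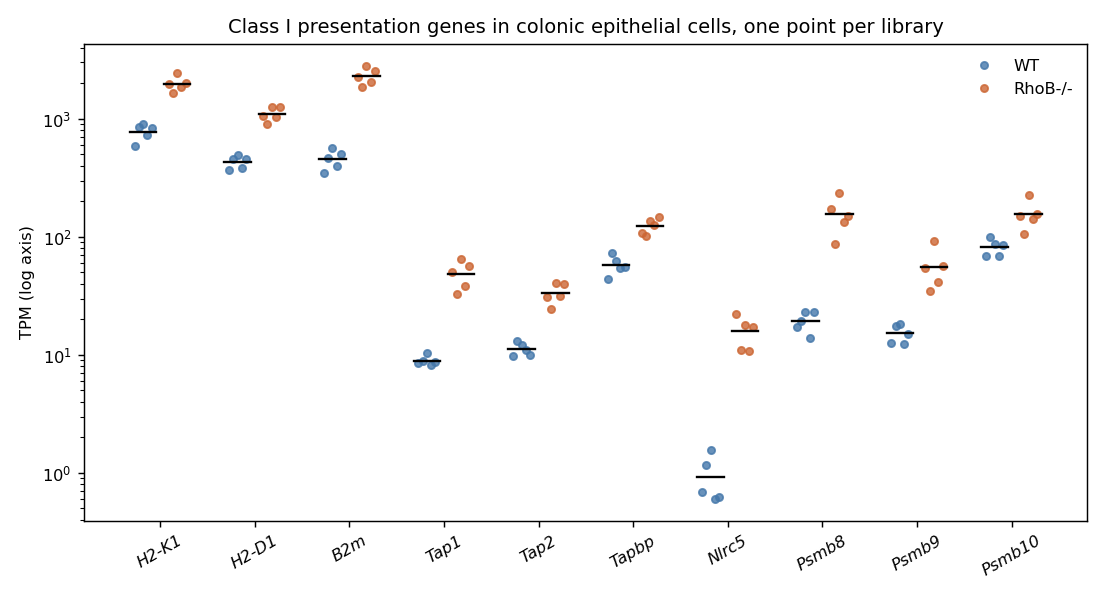
TPM of the 10 presentation genes on a log axis, with 1 point per library (blue, WT; orange, RhoB-/-; 5 each) and a bar at the group mean. For each gene the orange points lie above the blue ones, with the narrowest gap for Psmb10 (99.9 against 105 TPM) and Nlrc5 at 0.6 to 1.56 TPM in WT.

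The peptide-binding heavy chains were among the most abundant transcripts of these cells already in WT, and both rose to about the same extent. H2-K1 (ENSMUSG00000061232, chr17:33996017-34000347, GRCm38) had 588, 848, 901, 726 and 830 TPM in WT and 1972, 1641, 2426, 1854 and 1995 TPM in RhoB-/- replicates 1 to 5. The groups did not overlap, and the means were 779 ± 124 and 1977 ± 287 TPM (SD, n = 5), 2.54-fold apart. On the log2 scale H2-K1 rose by 1.35 (SE 0.15, limma adjusted p = 9.46e-05). H2-D1 (ENSMUSG00000073411, chr17:35262730-35267499) had 365, 459, 489.8, 380.4 and 454 TPM in WT and 1062, 903, 1258, 1031 and 1256 TPM in RhoB-/- libraries. It too rose without overlap, by 1.36 (SE 0.13, limma adjusted p = 3.64e-05). Ratios between genes within a library were taken of (TPM + 1). The ratio of H2-K1 to H2-D1 was 1.61 to 1.91 in WT and 1.59 to 1.93 in RhoB-/- libraries, a log2 difference of -0.01 that the exact permutation test did not separate from 0 (two-sided p = 0.841, adjusted p = 0.841 over 8 ratios). The sign of that difference turned when single libraries were left out.

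The light chain rose more than the heavy chains. B2m encodes β2-microglobulin, without which heavy chains do not reach the cell surface stably, and lies at chr2:122147686-122153083 (ENSMUSG00000060802). It had 346, 465, 570.5, 402 and 507 TPM in WT and 2258, 1867, 2821, 2066 and 2548 TPM in RhoB-/- libraries. Its means were 458 ± 87.8 and 2312 ± 380 TPM (SD, n = 5), 5.05-fold apart, and the log2 fold change was 2.34 (SE 0.16, limma adjusted p = 1.69e-06). The groups lay far apart, with 570.5 TPM as the highest WT value and 1867 TPM as the lowest RhoB-/- value. The ratio of B2m to the sum of H2-K1 and H2-D1 was 0.356 to 0.411 in WT and 0.716 to 0.784 in RhoB-/- libraries. The ratio was 1.98-fold higher in RhoB-/-, with no overlap between the genotypes (exact permutation p = 0.00794, two-sided, as low as 5 against 5 libraries can go; adjusted p = 0.0106).

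Of the transporter's subunits, Tap1 changed more than Tap2. Tap1 (ENSMUSG00000037321, chr17:34187553-34197225) had 8.53, 8.78, 10.4, 8.23 and 8.77 TPM in WT and 49.9, 32.6, 64.7, 38.0 and 56.5 TPM in RhoB-/- libraries. Its WT libraries lay close together, and its mean rose 5.41-fold from 8.95 ± 0.854 to 48.4 ± 13.2 TPM (SD, n = 5; log2 fold change 2.27, SE 0.17, limma adjusted p = 3.24e-06). Tap2 (ENSMUSG00000024339, chr17:34203527-34216321) had 9.84, 13.2, 12.1, 10.9 and 9.87 TPM in WT and 31.1, 24.5, 40.5, 31.5 and 40.1 TPM in RhoB-/- libraries, a log2 rise of 1.49 (SE 0.14, limma adjusted p = 3.54e-05). The transporter works as a dimer of the 2 products. Tap1 was below Tap2 in all 5 WT libraries and above it in all 5 RhoB-/- libraries. The ratio of Tap1 to Tap2 had medians of 0.873 in WT and 1.40 in RhoB-/- libraries, without overlap, and was 1.72-fold higher (exact permutation test, two-sided p = 0.00794, adjusted p = 0.0106).

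Tapbp, the tapasin gene (ENSMUSG00000024308, chr17:33915899-33929292), had the smallest log2 fold change of the 3 loading genes. It had 44.3, 72.4, 62.0, 54.0 and 56.0 TPM in WT and 107, 101, 136, 125 and 146 TPM in RhoB-/- libraries. The groups did not overlap and the mean rose 2.13-fold (log2 fold change 1.08, SE 0.15, limma adjusted p = 4.58e-04). Zbtb22 overlaps Tapbp on the same strand over 3422 bases, and had 14.9 ± 1.54 TPM in WT and 15.3 ± 3.47 TPM in RhoB-/- (SD, n = 5; exact permutation test, p = 0.952). Of the other loading partners, 1 of 5 rose: Tapbpl, a tapasin relative that edits bound peptides, from 13.1 ± 2.28 to 22.4 ± 4.38 TPM (SD, n = 5; log2 fold change 0.72, limma adjusted p = 0.00657). The chaperones Calr and Canx, the disulfide isomerase Pdia3 and the peptide-trimming enzyme Erap1 did not pass, with log2 fold changes of 0.22, 0.10, 0.04 and 0.20.

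Nlrc5, the transactivator of class I genes, had the largest log2 fold change of the 10. Nlrc5 (ENSMUSG00000074151, chr8:94434356-94527272) was low in WT, with 0.69, 1.17, 1.56, 0.60 and 0.63 TPM, and had 22.4, 10.9, 17.8, 10.8 and 17.2 TPM in RhoB-/- libraries. Its mean went from 0.93 ± 0.422 to 15.8 ± 4.96 TPM (SD, n = 5), without overlap. Its WT mean was under the 1 TPM of the filter, so that Nlrc5 was tested only through its RhoB-/- libraries. The log2 fold change was 3.10 (SE 0.21, limma adjusted p = 1.69e-06) with 1 TPM added to each value and 3.98 with 0.1 TPM added, since the added TPM weighs on values as low as those of WT. By level Nlrc5 stood at rank 12574 of the 12870 tested genes in WT and at rank 5327 in RhoB-/-, and it was the lowest of the 10 genes in both genotypes. Its counterpart for class II genes, Ciita, ranged from 0.15 to 0.45 TPM across the WT libraries and from 0.31 to 7.44 TPM across those of RhoB-/-. Ciita did not pass the test (log2 fold change 1.25, limma adjusted p = 0.0885), but was called higher without RhoB-/- replicate 2. With a WT mean of 0.268 TPM, it too was tested only through its RhoB-/- libraries.

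The 3 inducible subunits of the immunoproteasome rose, with log2 fold changes from 0.89 to 2.90. Psmb8 (LMP7; ENSMUSG00000024338, chr17:34197721-34201454) had 17.13, 19.32, 22.97, 13.94 and 23.09 TPM in WT and 170.5, 87.4, 237, 133 and 151 TPM in RhoB-/- libraries. Its mean rose 8.07-fold from 19.3 ± 3.91 to 156 ± 54.7 TPM (SD, n = 5; log2 fold change 2.90, SE 0.23, limma adjusted p = 5.90e-06). The RhoB-/- libraries ranged from 87.4 to 237 TPM, a wide spread that still left each of them above WT. Psmb9 (LMP2; ENSMUSG00000096727, chr17:34181987-34187764) had 12.6, 17.5, 18.4, 12.3 and 15.1 TPM in WT and 54.8, 34.5, 93.0, 41.3 and 56.4 TPM in RhoB-/- libraries (log2 fold change 1.75, SE 0.23, limma adjusted p = 3.70e-04). Psmb10 (MECL-1; ENSMUSG00000031897, chr8:105935735-105938444) had 68.5, 99.9, 87.6, 69.1 and 85.3 TPM in WT and 149, 105, 228, 142 and 157 TPM in RhoB-/- libraries. It had the smallest change of the 10 (log2 fold change 0.89, SE 0.18, limma adjusted p = 0.00657), and its lowest RhoB-/- library was only just above its highest WT library. Without RhoB-/- replicate 3, the highest library for Psmb10, its log2 fold change was 0.75 and it was still called.

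The constitutive subunits that these 3 replace in the core particle did not pass the test, and their groups overlapped. Psmb5, Psmb6 and Psmb7 carry the catalytic sites of the standard proteasome. Psmb5 had 118 ± 6.20 and 120.2 ± 29.4 TPM in the WT and RhoB-/- groups (SD, n = 5), with a 95% interval of the log2 difference from -0.33 to 0.32. For Psmb6 the levels were 137 ± 10.5 and 133 ± 37.9 TPM, with an interval from -0.43 to 0.28, and for Psmb7 they were 98.6 ± 4.94 and 105 ± 26.8 TPM, with an interval from -0.27 to 0.39. Of the 3 genes 0 were called in either direction, and the WT libraries lay closer together than those of RhoB-/-.

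Within each library, the balance between inducible and constitutive subunit transcripts moved. With 1 TPM added to each value, as in all ratios here, Psmb8 was at 0.122 to 0.223 of Psmb5 in WT and at 1.02 to 1.57 in RhoB-/- libraries, 7.50-fold higher. Psmb9 was at 0.0954 to 0.13 of Psmb6 in WT and at 0.341 to 0.495 in RhoB-/- libraries, 3.56-fold higher, and so stayed below its constitutive counterpart in every library. Psmb10 was at 0.692 to 1.02 of Psmb7 in WT and at 1.34 to 1.59 in RhoB-/- libraries, 1.78-fold higher. For each of the 3 ratios the groups did not overlap (exact permutation test, two-sided p = 0.00794 each, adjusted p = 0.0106). The inducible subunits also shifted against each other, with Psmb9 at 0.668 to 0.911 of Psmb8 in WT and 0.315 to 0.401 in RhoB-/- libraries (0.452-fold; the same exact p and adjusted p). The neighbours Tap1 and Psmb9, which share the stretch of DNA described above, did not change equally: the ratio of Tap1 to Psmb9 had medians of 0.607 in WT and 0.923 in RhoB-/- libraries, 1.43-fold apart, with overlapping ranges (exact permutation test, two-sided p = 0.0159, adjusted p = 0.0181). Without the library labelled RhoB-/- replicate 5, the 7 ratios that passed still passed.

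**Figure D2:**
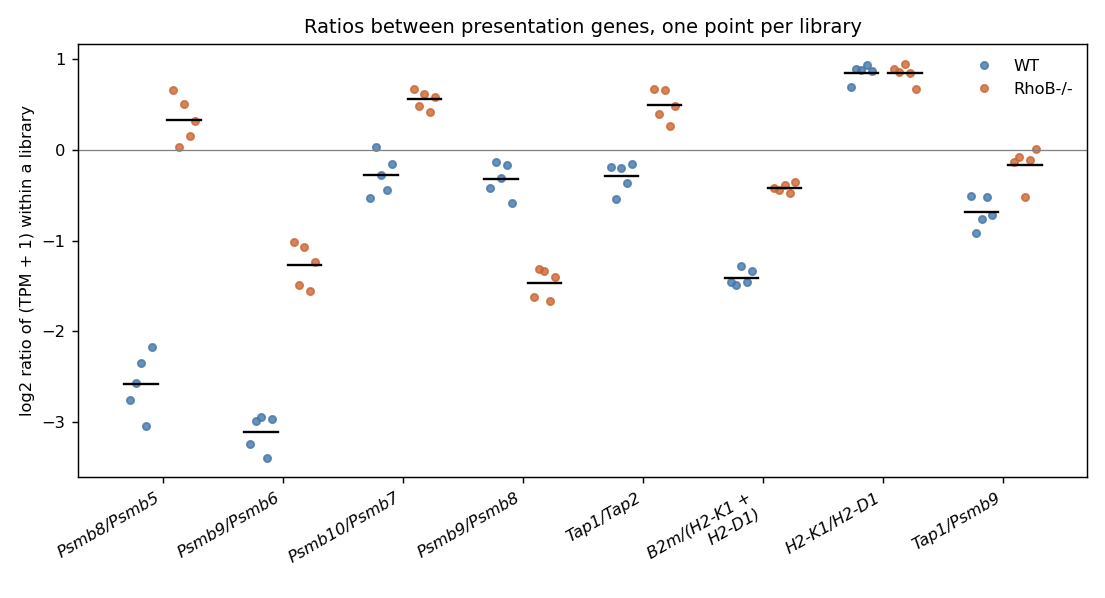
Log2 ratio of (TPM + 1) between pairs of presentation genes within each library, with 1 point per library (blue, WT; orange, RhoB-/-; 5 each) and a bar at the group mean. The groups are apart for 6 of the 8 ratios, touch for Tap1/Psmb9 and lie on each other for H2-K1/H2-D1. Psmb8/Psmb5 and Tap1/Tap2 lie below the line of equal level at 0 in WT and above it in RhoB-/-. Psmb10/Psmb7 does the same except for WT replicate 2, which lies just above the line.

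The subunits of the PA28 cap, which opens the proteasome and favours the release of peptides for class I, rose as well. Psme1 had 114 ± 11.0 TPM in WT and 188 ± 47.9 TPM in RhoB-/- (SD, n = 5; log2 fold change 0.68, limma adjusted p = 0.0132). Psme2 had 165 ± 22.4 and 444 ± 128 TPM (log2 fold change 1.38, limma adjusted p = 3.90e-04). Psme3, which forms a separate nuclear cap, did not pass at -0.06, nor did Pomp, the assembly chaperone of the core particle, at 0.31 (limma adjusted p = 0.705 and 0.0813). Of these 4 genes 2 were thus called higher and 0 lower. The call of Psme1 was lost without RhoB-/- replicate 3, and that of Psme2 was kept without any single library.

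**Figure D3:**
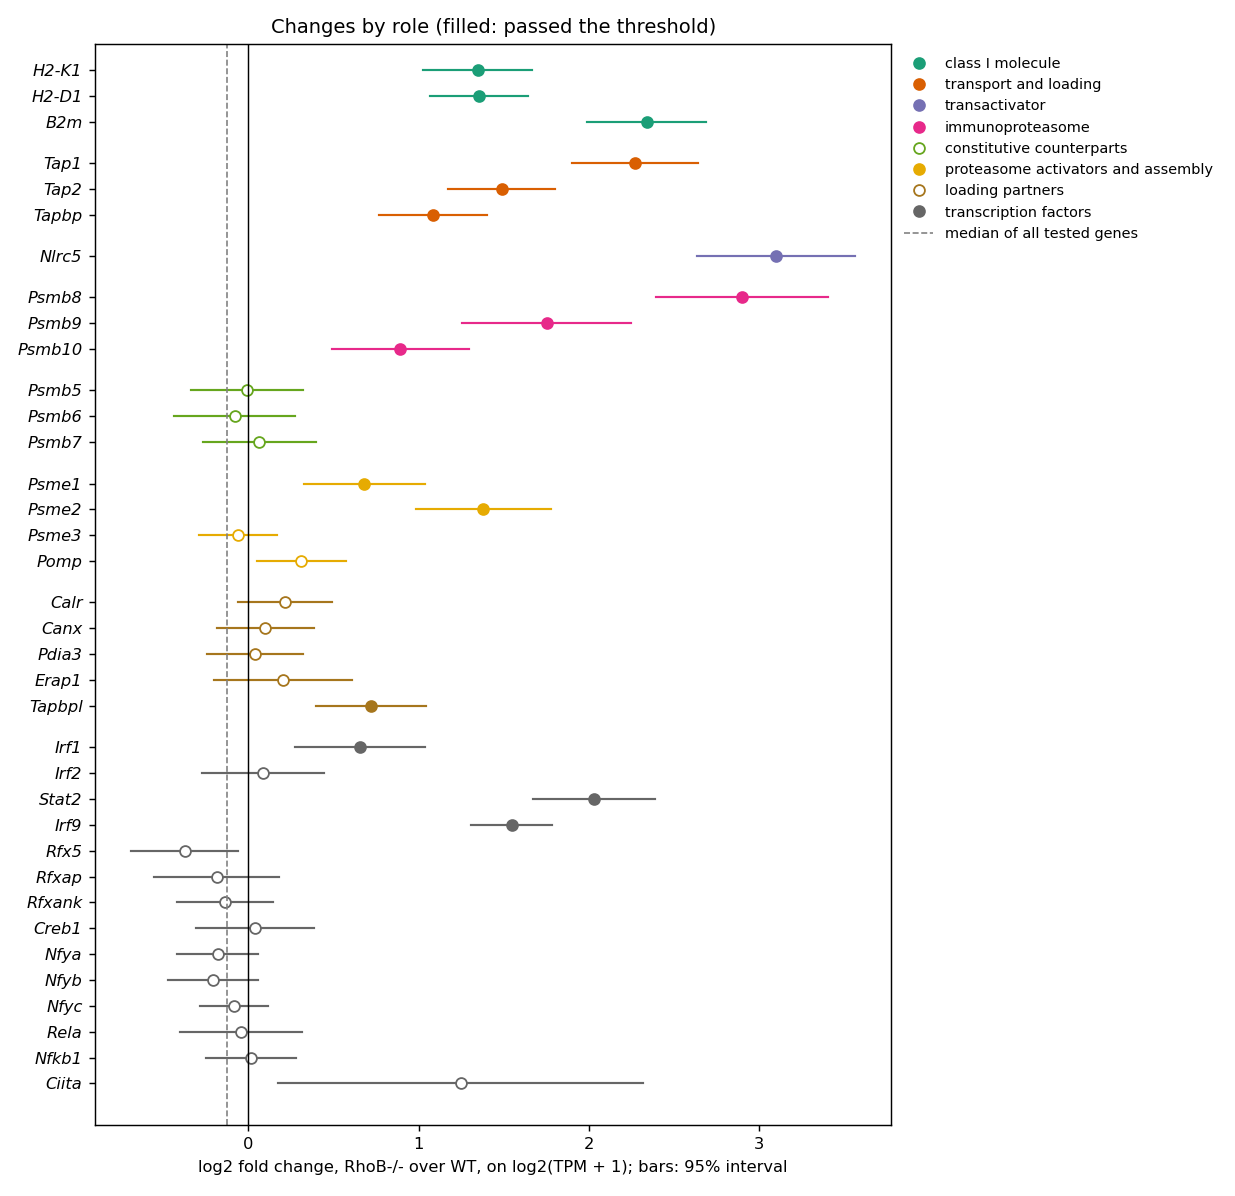
Log2 fold change of RhoB-/- over WT on log2(TPM + 1), with its 95% interval, for the 10 presentation genes and 26 related genes grouped by role (filled points passed the threshold). The 10 genes lie to the right of the dashed median of all tested genes at -0.13, as do most of the other genes, filled or not. Among the transcription factors the filled points are Stat2, Irf9 and Irf1, and the intervals of the 3 constitutive subunits include 0.

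Among 14 transcription factor genes that act on class I promoters, 3 rose and 0 fell: Stat2, Irf9 and Irf1, which act in interferon signalling. Stat2 went from 12.9 ± 2.82 to 55.4 ± 10.6 TPM (SD, n = 5; log2 fold change 2.03, limma adjusted p = 6.53e-06) and Irf9 from 11.0 ± 1.31 to 34.0 ± 3.65 TPM (log2 fold change 1.55, limma adjusted p = 1.97e-06), both without overlap. Irf1, which binds the IRF core, had 78.0 ± 19.3 and 122 ± 21.2 TPM, with overlapping groups (log2 fold change 0.66, limma adjusted p = 0.0221). Its call was lost without WT replicate 1, 2 or 4 or RhoB-/- replicate 1 or 5, and with no filter on low TPM, while those of Stat2 and Irf9 were kept without any single library. The genes of the proteins that hold NLRC5 on the promoter did not pass: Rfx5 was at -0.37 (limma adjusted p = 0.0835), and Rfxap, Rfxank, Creb1, Nfya, Nfyb and Nfyc lay between -0.21 and 0.04. The NF-κB genes Rela and Nfkb1 were at -0.04 and 0.01. Of 6 interferon genes none reached the level for testing. Ifnb1, Ifna4, Ifne and Ifnl3 were listed at 0 in all 10 libraries, and Ifng ranged from 0.17 to 1.17 TPM across WT and from 0.19 to 1.13 TPM across RhoB-/- libraries.

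The other class I genes of the MHC resemble H2-K1 and H2-D1 in sequence, so that reads could be shared between them, and how the authors' counting divided such reads was not given in the sources used here. In the longest coding transcripts, 8.79% of the 50-base windows of H2-K1 and 14.3% of those of H2-D1 occurred in another gene, and at the read length of 150 bases 0% and 1.79%. Of 17 paralogs 15 were tested, of which 12 rose and 0 fell. Among the 12, H2-T10 and H2-T24 had WT means of 0.586 and 0.5 TPM and were tested only through their RhoB-/- libraries. H2-T23, which encodes the Qa-1 ligand of NKG2A and NKG2C receptors, went from 128 ± 19.5 to 430.3 ± 69.5 TPM (SD, n = 5; log2 fold change 1.74, limma adjusted p = 8.69e-06), and H2-Q2 from 91.4 ± 17.1 to 219 ± 47.9 TPM (log2 fold change 1.25). H2-Q10, H2-M3 and H2-K2 did not pass, at 0.11, 0.07 and 0.52. H2-K2 was called higher under median centring and without WT replicate 3. Without the library labelled RhoB-/- replicate 5, 11 of the 15 were called. The call of H2-Bl, whose groups overlapped, was lost without it, without WT replicate 1, 3, 4 or 5, without RhoB-/- replicate 2, 3 or 4, or with no filter on low TPM. The sum of H2-K1 and H2-D1 was 2.55-fold higher in RhoB-/- IECs, and 2.60-fold with the 17 paralogs added.

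The order of the levels changed at the top and in the middle. In WT, H2-K1 was highest, followed by B2m and H2-D1, whose ranges overlapped, then Psmb10 and Tapbp, whose ranges overlapped, then Psmb8, Psmb9, Tap2 and Tap1, each overlapping with the next, and Nlrc5 apart at the bottom. In RhoB-/- libraries B2m came first, above H2-K1 in 5 of 5 libraries though the ranges overlapped, and H2-D1 stood apart below them. Psmb10, Psmb8 and Tapbp followed with overlapping ranges, then Psmb9, Tap1 and Tap2 with overlapping ranges, and again Nlrc5. Among all tested genes B2m moved from rank 240 to rank 36 by mean TPM, H2-K1 from 158 to 47 and Psmb8 from 4807 to 700.

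Within each genotype the 10 genes largely shared their highest and lowest libraries. RhoB-/- replicate 3 was the highest RhoB-/- library for 8 of the 10 genes, and replicate 2 the lowest for 9. That order was not particular to the 10 genes. Psmb5, Psmb6 and Psmb7, which were not called, were also highest in RhoB-/- replicate 3, at 166, 196 and 148 TPM. Their lowest RhoB-/- values, 85.8, 98.6 and 75.1 TPM, were in replicate 2. In WT, replicate 3 was highest for 6 genes, and replicates 1 and 4 were lowest for 6 and 4. The library labelled RhoB-/- replicate 5, with its residual Rhob, had values inside the range of the other RhoB-/- libraries or, for Tapbp, above them. RhoB-/- replicate 3 also had the lowest mitochondrial share, 10.3% of TPM, and replicate 2 the highest of its group, 22.4%. With the mitochondrial genes left out and the rest rescaled, the 10 genes remained called, with log2 fold changes from 0.83 to 3.18.

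**Figure D4:**
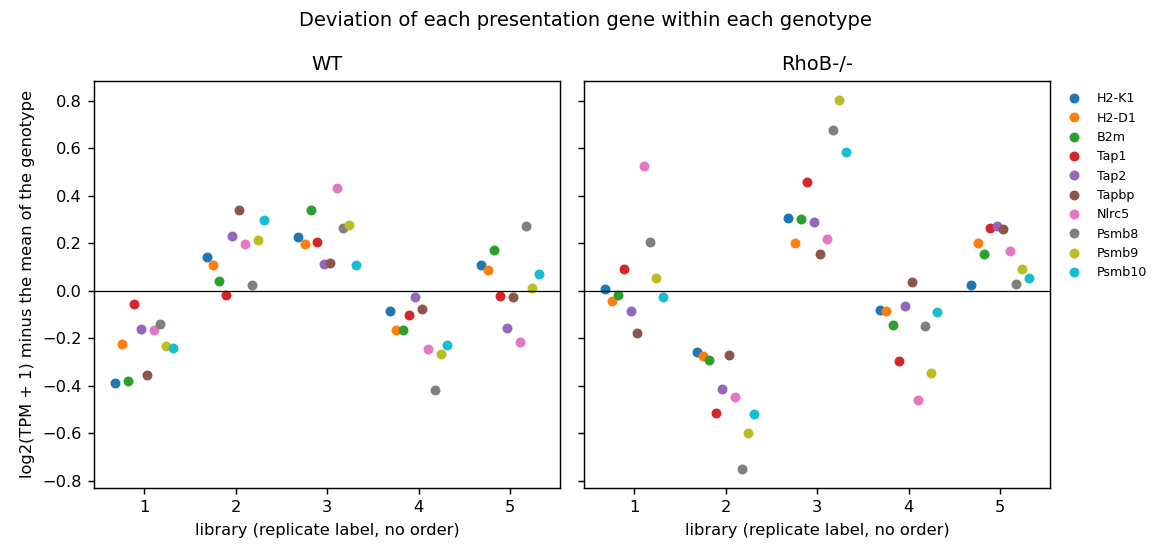
Log2(TPM + 1) of each presentation gene minus its mean over the 5 libraries of the genotype, in WT (left) and RhoB-/- (right), with 1 colour per gene. RhoB-/- replicate 3 lies above and replicate 2 below the mean for all 10 genes, and WT replicate 1 below it.

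The genes nearest to the 10 in their profile were sought over the 10 libraries, as the root mean square difference from the genes' mean standardised profile. The 10 themselves lay between 0.0815 for H2-D1 and 0.301 for Psmb10, against a median of 1.46 over all tested genes. Each of the 10 helped to form that mean profile, so that their small differences are partly built in. The 5 nearest other genes were H2-T22 (0.131), Plac8 (0.146), H2-Q4 (0.148), H2-T23 (0.151) and Slfn2 (0.161). H2-T22, H2-Q4 and H2-T23 are class I paralogs. Plac8 rose from 1056 ± 170 to 2783 ± 645 TPM and Slfn2, a Schlafen gene, from 0.866 ± 0.370 to 30.1 ± 10.1 TPM (SD, n = 5). The difference between genotypes is part of each profile, so that likeness here includes a shared step between WT and RhoB-/-.

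The cells carried the markers of colonic epithelium in both genotypes. All 12 epithelial markers were tested, 2 rose (Krt20 and Vil1) and 0 fell, and their summed level was 29275 to 33777 TPM in WT and 29213 to 47217 TPM in RhoB-/- libraries. Of 19 leukocyte markers 8 were tested and 6 rose: Ptprc, Cd3e, Cd3g, Cd8a, Cd68 and Ly6g. Over all tested genes 5.58% were called higher. Cd8a, Cd68 and Lyz2 had WT means of 0.832, 0.988 and 0.868 TPM. They were tested only through their RhoB-/- libraries, so both counts lean towards genes high in RhoB-/-. Of the 19 none was at 0 in all 10 libraries. Ly6g made up most of the sum given above, and without it, a choice made after its values were seen, the sums were 7.97 to 17.1 TPM in WT and 26.7 to 51.1 TPM in RhoB-/- libraries. Ptprc, which encodes the pan-leukocyte marker CD45, went from 1.97 ± 0.571 to 5.92 ± 2.28 TPM (SD, n = 5), and S100a8 was at 0 in all WT and in 2 RhoB-/- libraries. Of 10 stromal and endothelial markers 2 were tested and 1 rose (Dcn), with sums of 4.25 to 5.50 and 6.70 to 36.6 TPM. Leukocytes express class I genes and the immunoproteasome subunits Psmb8, Psmb9 and Psmb10 strongly. Without the library labelled RhoB-/- replicate 5, the 6 leukocyte calls, Dcn and Krt20 stayed called and Vil1 did not. The Dcn call was lost with no filter on low TPM, and that of Vil1 also under quantile normalization and with mitochondrial genes left out.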

How the data were processed

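Libraries of colonic IEC RNA, 5 per genotype, were compared, with groups and replicate numbers from the sample labels. The authors sequenced paired-end reads of 150 bases, trimmed them, aligned them with HISAT2 to GRCm38.p6 and used StringTie and RSEM. The gene annotation was not given in the sources used here. The deposited table holds TPM values with 2 decimals per gene and library, which keep no depth. No library pair among 45 was identical.

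The 10 genes, the related gene lists, the tests and the ratios were chosen with earlier results of these data known. Log2(TPM + 1) of genes with a mean of at least 1 TPM was fitted with limma 3.58.1 (trend, R 4.3.3) by genotype, with Benjamini-Hochberg adjustment over all 12870 genes tested, and a call needed an adjusted p below 0.05 and a fold change above 1.5. All 10 genes passed the filter on low values, which used the mean over all 10 libraries. Nlrc5, with a WT mean of 0.93 TPM, passed only through its RhoB-/- libraries. The same held for H2-T10, H2-T24, Ciita, Cd8a, Cd68, Lyz2 and Slfn2. Their WT means were 0.586, 0.5, 0.268, 0.832, 0.988, 0.868 and 0.866 TPM. The 8 ratios were compared by exact permutation tests over all labelings of the 10 libraries, two-sided. Named genes were the 10, the called and constitutive members of the lists and the 5 nearest profiles; others account for a list. One gene of the transcription list is not reported here. Scripts were tested on simulated data. Positions came from GENCODE on GRCm38 (55141 of 55487 identifiers matched) and promoter windows from RefSeq. Alternatives were the pseudocount, the filter, the fold threshold, centring, quantile normalization, mitochondrial genes left out, no trend, a replicate block and leaving out each library. List counts under these settings were added after the data were seen.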

Additional observations from a re-analysis of the deposited data

Results flagged for a closer look

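Of 84 groups of 5 libraries examined over the presentation genes, the related genes and the ratios, 5 held a library far from the other 4, and chance marks about 1 group in 20. WT replicate 3 had 10.4 TPM of Tap1, above the other WT libraries. WT replicate 5 had 107 TPM of Psmb5, below the other WT libraries. WT replicate 2 had 6.83 TPM of H2-Q7, below the other WT libraries. The library labelled RhoB-/- replicate 5 had 110.87 TPM of Rhob, above the other RhoB-/- libraries. WT replicate 1 had a ratio of H2-K1 to H2-D1 of 1.61, below the other WT libraries.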

How the results depend on the processing

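All 10 presentation genes kept their direction and their call under each alternative run, with log2 fold changes from 0.75 to 3.98 and adjusted p-values up to 0.0219, except that at a fold threshold of 2 Psmb10 was lost and 9 were called. Over all genes the number called lower moved from 918 to 539 with median centring, 581 with quantile normalization and 1403 without mitochondrial genes. Same-numbered libraries shared little deviation from their group means, with correlations from -0.087 to 0.072. Whether they were collected or prepared together was not stated, and these correlations cannot decide it. With a replicate block the 10 genes stayed called and the counts over all genes were 715 higher and 812 lower. Under the replicate block, tested by sign flips over 5 pairs (smallest possible p 0.0625), no ratio could pass; the log2 differences were 2.91 for Psmb8/Psmb5, 1.83 for Psmb9/Psmb6, 0.83 for Psmb10/Psmb7, -1.15 for Psmb9/Psmb8, 0.78 for Tap1/Tap2, 0.99 for B2m/(H2-K1 + H2-D1) and 0.52 for Tap1/Psmb9, each with an adjusted p of 0.0714. Leaving out 1 library at a time, the log2 difference of H2-K1/H2-D1 ran from -0.0482 to 0.0364 and its sign turned without WT replicate 2 (0.0009), WT replicate 4 (0.0128) or RhoB-/- replicate 5 (0.0364). TPM gives no depth, so the counting error of low values such as Nlrc5 in WT is unknown.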
